A study of Mus musculus with 15 samples.

Results

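The mouse mitochondrial genome encodes 37 genes, and all 37 are present among the 37310 genes of the count table. They were chosen by their symbol, which begins with mt-, and not by any measured value. They comprise 2 ribosomal RNA (rRNA) genes, 13 messenger RNA (mRNA) genes and 22 transfer RNA (tRNA) genes. Their counts were examined library by library in hippocampus after contextual fear conditioning (FC), after retrieval of that memory (RT) and in control mice (CC).

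All mice were wild-type C57BL/6J males of 2 months. FC mice received 1 foot shock of 1.5 mA and 2 s that ended 2.5 min after placement in the chamber, and tissue was taken 30 min later. RT mice had the same training, were returned to the context 24 h later for 5 min, and were dissected 30 min after this exposure. CC mice were only handled, without training, and their tissue was taken at the same time of day. Each group has 5 libraries, numbered 3, 5, 6, 7 and 8, and each library is 1 mouse. The tissue is whole hippocampus, so that fewer cells of a type and less RNA per cell cannot be told apart. RNA was selected for poly(A) tails and made into libraries with a kit that does not mark strand.

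Mitochondrial DNA is a small circle that is present in many copies per cell. Both of its strands are transcribed into long precursors, and the tRNAs between the other genes are cut out to release rRNAs and mRNAs, most of which then receive short poly(A) tails. The mRNAs encode core subunits of the respiratory chain and of the ATP synthase, which supply most of the ATP used by neurons, while the rRNAs and tRNAs serve the translation of those mRNAs inside the organelle. Pieces of this genome have also been inserted into the chromosomes over evolution, and a read from a recent insertion cannot be told from a mitochondrial read where both carry the same bases.

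The nuclear copies are described first, since the authors kept only read pairs with a single place in the genome. Their effect on the counts was not tested. In mm9, an assembly of the same mouse strain, the longest copy lies at chr1:24618374-24623027 on the minus strand. It aligns to positions 6390 to 11042 of the mitochondrial genome (chrM) over 4654 bases with 99.936% identity. The differences are A6393T, T9461C and 1 inserted A after position 9828, where positions are those of chrM, the mitochondrial base comes first and the base of the copy last. Of the 13 mRNA genes, 6 lie wholly inside this stretch: mt-Co2 (chrM:7013-7696), mt-Atp8 (chrM:7766-7969), mt-Atp6 (chrM:7927-8607), mt-Co3 (chrM:8607-9390), mt-Nd3 (chrM:9459-9806) and mt-Nd4l (chrM:9877-10173). To show what a read of 100 bases meets there, the first 100 bases of mt-Co2 are printed with their copy, which is identical. Next come 80 bases from the end of mt-Tg into mt-Nd3 (chrM:9431-9510), with the one base that differs between genome and copy in capitals. The last pair is the final 100 bases of mt-Nd2 with a second copy on chromosome 2, of 97.362% identity over its whole length, where 3 differing bases are in capitals.

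mt-Co2, chrM:7013-7112: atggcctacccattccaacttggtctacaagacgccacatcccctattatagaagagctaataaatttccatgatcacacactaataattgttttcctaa
copy, chr1:24622305-24622404, minus strand: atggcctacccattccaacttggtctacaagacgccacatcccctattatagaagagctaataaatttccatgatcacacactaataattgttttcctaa
mt-Tg and mt-Nd3, chrM:9431-9510: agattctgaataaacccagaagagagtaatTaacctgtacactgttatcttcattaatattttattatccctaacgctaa
copy, chr1:24619907-24619986, minus strand: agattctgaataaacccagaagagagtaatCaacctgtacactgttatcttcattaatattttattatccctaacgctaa
mt-Nd2, chrM:4852-4951: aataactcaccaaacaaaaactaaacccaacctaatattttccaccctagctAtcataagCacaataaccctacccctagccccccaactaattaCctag
copy, chr2:22445544-22445643, minus strand: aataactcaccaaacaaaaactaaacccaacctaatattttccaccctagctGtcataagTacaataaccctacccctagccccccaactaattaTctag

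Every stretch of 100 bases within mt-Co2, mt-Atp8, mt-Atp6, mt-Co3 and mt-Nd4l has an exact match on a chromosome, as do 98.8% of those within mt-Nd3. The share was 60.8% for mt-Nd4 and 30.8% for mt-Co1, which extend beyond the ends of the chromosome 1 copy. It was 3.2% for mt-Nd2, 1.2% for mt-Rnr2 and 0 for mt-Rnr1, mt-Nd1, mt-Nd5, mt-Nd6 and mt-Cytb.

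The counts fell into 2 ranges that followed this division. The 6 genes inside the copy had 3 to 1861 reads per library, while the other 7 mRNA genes and both rRNA genes had 40822 to 987346. The 9 genes with bases outside the copy supplied 99.78% of all reads counted on the mitochondrial genome and the 6 inside it 0.06125%. Per kilobase of gene, the scale on which genes of unequal length are compared here, mt-Co1 averaged 459559 UQ counts over the 15 libraries. UQ counts are reads divided by a factor for each library that is set from the upper quartile of its counts. mt-Cytb followed with 310031 per kilobase, and mt-Nd1 with 245441. mt-Nd2, mt-Rnr2, mt-Rnr1, mt-Nd4, mt-Nd6 and mt-Nd5 lay between 108290 and 163303. RNA was selected for poly(A) tails, and how well each RNA was captured was not tested. This order is therefore one of counts, and it is not read as an order of rRNA and mRNA levels in the tissue. Inside the copy, the values were 685 for mt-Co2, 588 for mt-Atp6, 517 for mt-Co3, 231 for mt-Nd3, 228 for mt-Nd4l and 65.8 for mt-Atp8. mt-Co2 and mt-Co3 encode subunits of the same enzyme as mt-Co1, cytochrome c oxidase, which sat far above both on this scale. When the same counts were divided by only the bases that lie outside the copy, mt-Co1 had 668568 per kilobase and mt-Nd4 had 335991, against 459559 and 122400 over their whole length. How many read pairs of the 8 mRNA genes with bases in the copy were left out for having a second place in the genome was not tested, and their levels are not read as levels of the mRNAs.

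**Figure D1:**
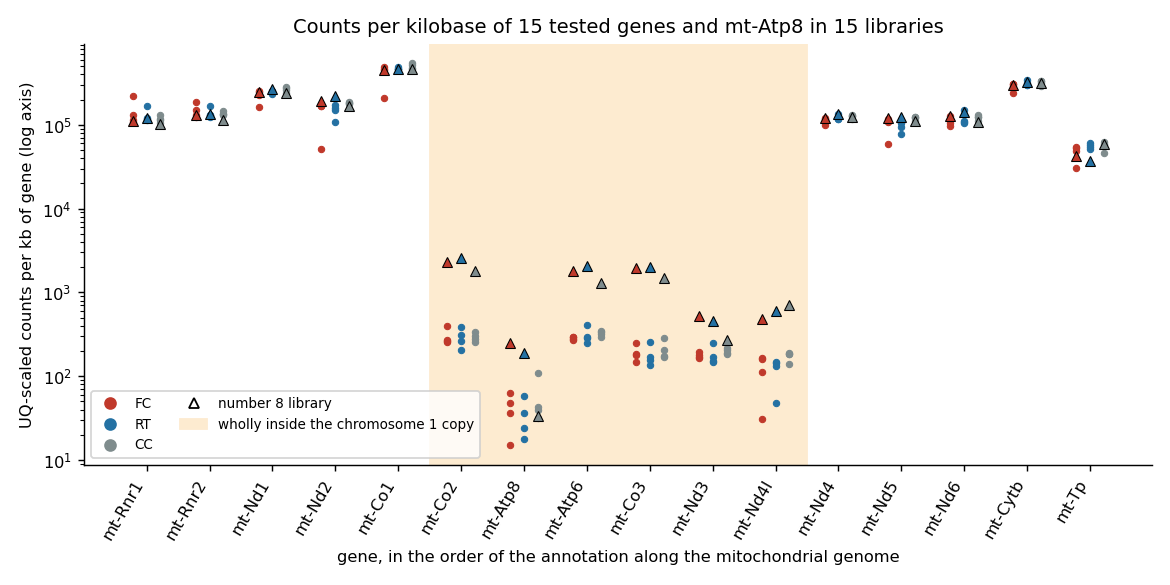
UQ counts per kilobase of gene (log axis) for the 15 tested genes and mt-Atp8 in the order of the annotation along the mitochondrial genome, with 1 point per library, coloured by FC, RT and CC. Triangles are the number 8 libraries, and shading marks the 6 mRNA genes that lie wholly inside the chromosome 1 copy, where all points lie more than 10 times below those of the rRNA and mRNA genes outside it.

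Most tRNA genes gave no measurement. They are 59 to 75 bases long, less than the 100 bases of a read, and 12 of the 22 had no read in any library, which allows up to 3 reads among the 766917181 counted in all libraries together, counting error alone considered. A further 9 had 47 reads in all 15 libraries together, of which mt-Tc, the cysteine tRNA gene, held 34, and its highest count was 10 in FC8. The exception was mt-Tp, the proline tRNA gene (chrM:15356-15422, minus strand), with 1764 to 5152 reads in each library. It is the last gene of the annotated sequence, and 877 bases without any annotated gene, the control region from which transcription starts, lie beside it. On the circle these bases also border mt-Tf (chrM:1-68), the first gene of the sequence, which had 1 read in all libraries together. mt-Tc and mt-Tn have 32 such bases between them, and no other tRNA gene has more than 5 on either side. The sequence of mt-Tp is printed to show how short it is, with its anticodon, the middle of a loop closed by 2 complementary arms, in capitals.

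mt-Tp, chrM:15356-15422, minus strand: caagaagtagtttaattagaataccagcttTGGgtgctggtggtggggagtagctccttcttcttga

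Because strand was not marked, reads counted on mt-Tp, and likewise those on mt-Nd6, the only mRNA gene of the minus strand, cannot be told from RNA of the opposite strand. A filter of more than 10 reads in more than 5 libraries kept 15 of the 37 genes: both rRNA genes, 12 mRNA genes and mt-Tp. mt-Atp8, which encodes a small ATP synthase subunit, did not pass it with 3 to 59 reads, nor did the other 21 tRNA genes.

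Library totals were 42051401 to 59093377 counts in FC, 35731428 to 61275293 in RT and 39992029 to 62555543 in CC. In each library, 16 to 20 of the 37 genes had at least 1 read. Intervals are not given for these counts, since the spread between libraries was far above counting error.

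The genome's share of all counts was first compared between the groups, as a description without a test. The share was 3.07% in FC3, 4.29% in FC5, 4.55% in FC6, 4.40% in FC7 and 4.48% in FC8. It was 4.43%, 4.45%, 4.36%, 4.21% and 4.76% in RT3, RT5, RT6, RT7 and RT8, and 4.39%, 4.79%, 4.47%, 4.94% and 4.25% in CC3, CC5, CC6, CC7 and CC8. The groups overlapped, with FC3 below every other library. The means were 4.155% ± 0.616 in FC, 4.442% ± 0.200 in RT and 4.566% ± 0.287 in CC (SD, n = 5 each). The difference was -0.412 percentage points for FC minus CC and -0.125 for RT minus CC, smaller than the pooled SD between libraries of 0.481 and 0.247. FC minus RT was -0.287, with a pooled SD of 0.458. Without FC3 and RT3 the FC mean was 4.427% ± 0.111 (n = 4).

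FC3 and RT3 departed from the other 13 libraries, and they did so by different amounts from gene to gene. The rRNAs made up 31.2% of the mitochondrial counts in FC3 and 18.7% in RT3, against 12.6% to 15.8% in the others. As a share of all counts, the 13 mRNA genes fell to 2.11% in FC3, whereas RT3 had 3.59%, within the 3.58% to 4.23% of the others. mt-Rnr1, the small ribosomal subunit RNA, had 213343 UQ counts in FC3 and 159168 in RT3, against 96922 to 126377 in the other 13. mt-Rnr2, the large ribosomal subunit RNA, had 297394 and 269410, against 181213 to 238738. Both rRNAs were thus above all other libraries in FC3 and RT3 alike.

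The mRNAs did not move as one in these libraries. mt-Nd2, a core subunit of complex I, had 53311 counts in FC3 and 111583 in RT3, against 154151 to 227747 in the others. mt-Nd5, another complex I subunit, had 109309 and 141495, against 172996 to 229070. Both were below the whole range of the other 13 in FC3 and in RT3. mt-Co1, the catalytic subunit of cytochrome c oxidase, had 320527 in FC3, below the others, and 711671 in RT3, inside their range of 700673 to 844243. mt-Nd1, also of complex I, showed the same order with 157654 in FC3 and 241397 in RT3, against 217396 to 268088. mt-Cytb, the one mitochondrial mRNA of complex III, was lower in FC3 (277142) and higher in RT3 (391182) than the 332905 to 385988 of the others. mt-Nd6 was inside the range in FC3 (66801) and above it in RT3 (77248), against 49789 to 74738. Of the 15 tested genes, 2 were above and 8 below the range of the other 13 libraries in FC3, and 5 were above and 3 below in RT3.

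Relative to the mean of the 9 number 5, 6 and 7 libraries, the level in FC3 was 0.303 for mt-Nd2, 0.427 for mt-Co1, 0.538 for mt-Nd5, 0.547 for mt-Tp, 0.655 for mt-Nd1, 0.771 for mt-Cytb and 0.823 for mt-Nd4. It was 1.13 for mt-Nd6, 1.41 for mt-Rnr2 and 1.88 for mt-Rnr1. In RT3 the ratios were 0.634 for mt-Nd2 and 0.696 for mt-Nd5, and for the other 8 they lay between 0.949 and 1.40. Inside the copy, mt-Nd4l stood out with 0.201 in FC3 and 0.318 in RT3, while the other 4 tested genes had 0.992 to 1.51. Among the 9 libraries the coefficient of variation was 4.38% to 10.4% for the genes outside the copy and mt-Tp.

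**Figure D2:**
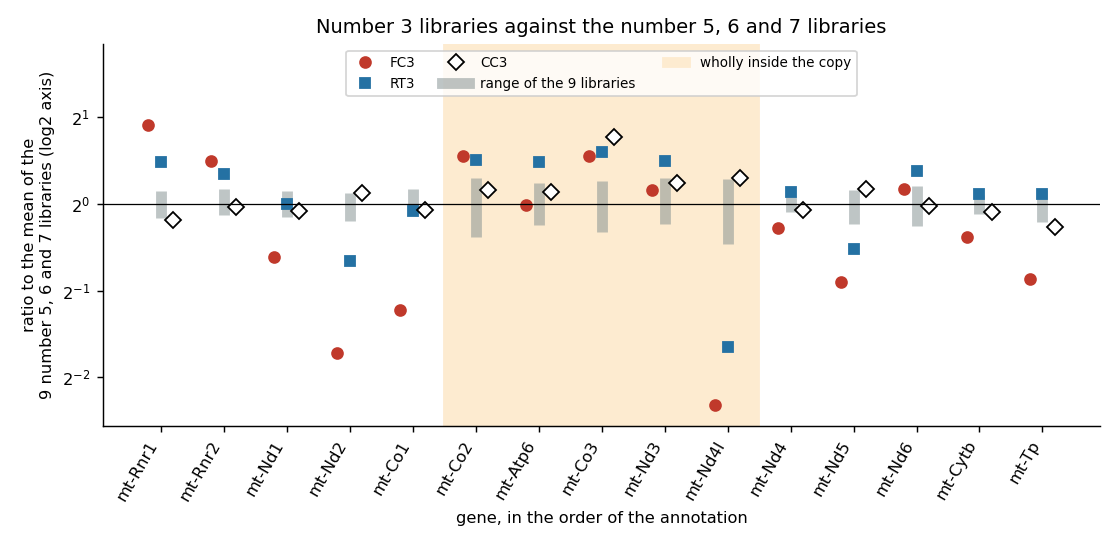
UQ counts of the 15 tested genes in FC3, RT3 and CC3 as a ratio to the mean of the 9 number 5, 6 and 7 libraries (log2 axis), in the order of the annotation. Grey bars span the 9 libraries and shading marks genes inside the copy. mt-Nd2 lies at 0.303 in FC3 and 0.634 in RT3, while mt-Rnr1 lies at 1.88 and 1.40.

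Markers of several cell types, though not of all those examined, moved in the same 2 libraries. The summed UQ counts of 6 oligodendrocyte markers were 414758 in FC3 and 367128 in RT3, against 238774 to 285042 in the other 13. Those of 6 microglial markers were 21325 and 18300, against 13425 to 15054, and those of 5 blood markers 7956 and 6763, against 2019 to 5490. The sum of 8 markers of hippocampal neurons was lower, with 278323 and 318764, against 348198 to 418672, and so was that of 6 astrocyte markers, with 151694 and 164623, against 186000 to 220297. The sum of 6 endothelial markers was above the others in FC3 (14059) but not in RT3 (11781), against 9661 to 12464. That of choroid plexus markers, 7711 and 7600, was within the 2243 to 54239 of the others. Every marker of these lists was tested and none was at 0 in all libraries. The part of cell composition or RNA quality in the departures of FC3 and RT3 was not tested.

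A different split separated the number 8 libraries, 1 of each group, from the other 12, and it lay in the genes inside the copy. It was noticed in the data, and it is given as a description without a test. mt-Co3 had 1553 UQ counts in FC8, 1561 in RT8 and 1154 in CC8, against 106 to 225 in the other 12 libraries. mt-Co2 had 1591, 1781 and 1245 in the same order, against 142 to 273. mt-Atp6, an ATP synthase subunit, had 1217, 1416 and 887, against 168 to 279. The means of these genes were 9.45, 7.65 and 5.66 times those of the other 12. All 3 number 8 libraries thus lay above every other library, whatever the condition of the mouse.

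mt-Nd4l, the smallest of the complex I mRNAs, had 144 counts in FC8, 176 in RT8 and 208 in CC8, against 9.12 to 55.7, and mt-Nd3 had 184, 160 and 94.5, against 51.6 to 85.5. mt-Atp8 had 59 reads in FC8 and 27 in RT8 but 6 in CC8, against 3 to 25 in the rest. All 5 tested genes inside the copy were above the other 12 in all 3 number 8 libraries, and none of the 10 outside it was. Across all genes tested the share above in this way was 0.661% (119 of 18008). mt-Co3, mt-Co2 and mt-Atp6 had the 3 largest mean ratios of these 119. For the genes outside the copy, the mean ratio of number 8 libraries to the rest was 0.852 (mt-Rnr1) to 1.24 (mt-Nd2). The 6 genes together were 0.163% to 0.213% of the mitochondrial counts in the number 8 libraries and 0.0230% to 0.0454% in the other 12.

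Of 9 tested nuclear genes that lie on copies of the genome, 8 were likewise above the other 12 libraries in all 3 number 8 libraries. The exception was Gm11407 on chromosome 4, with 201 UQ counts in FC8, 384 in RT8 and 29.3 in CC8, against 11.1 to 39.9 in the other 12. Gm10925, on the chromosome 1 copy of mt-Atp8 and mt-Atp6, had 1927 UQ counts in FC8, 1986 in RT8 and 1279 in CC8, against 235 to 397 in the other 12. Gm10222, on the copy of mt-Nd4l, had 263, 247 and 259, against 35.5 to 97.3. Its 2 lowest values, 35.5 and 38.7, were those of FC3 and RT3, the libraries in which mt-Nd4l was also lowest. On chromosome 2, the ratio of means was 4.40 for Gm13341 (the copy of mt-Co2), 3.70 for Gm13340 (mt-Co1) and 5.33 for Gm13339 (mt-Nd2). Pseudogenes were 38.7% of the 119 genes above in all number 8 libraries and 5.48% of all genes tested. The labels do not say what the library number stands for, and a cause of this split was not tested.

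**Figure D3:**
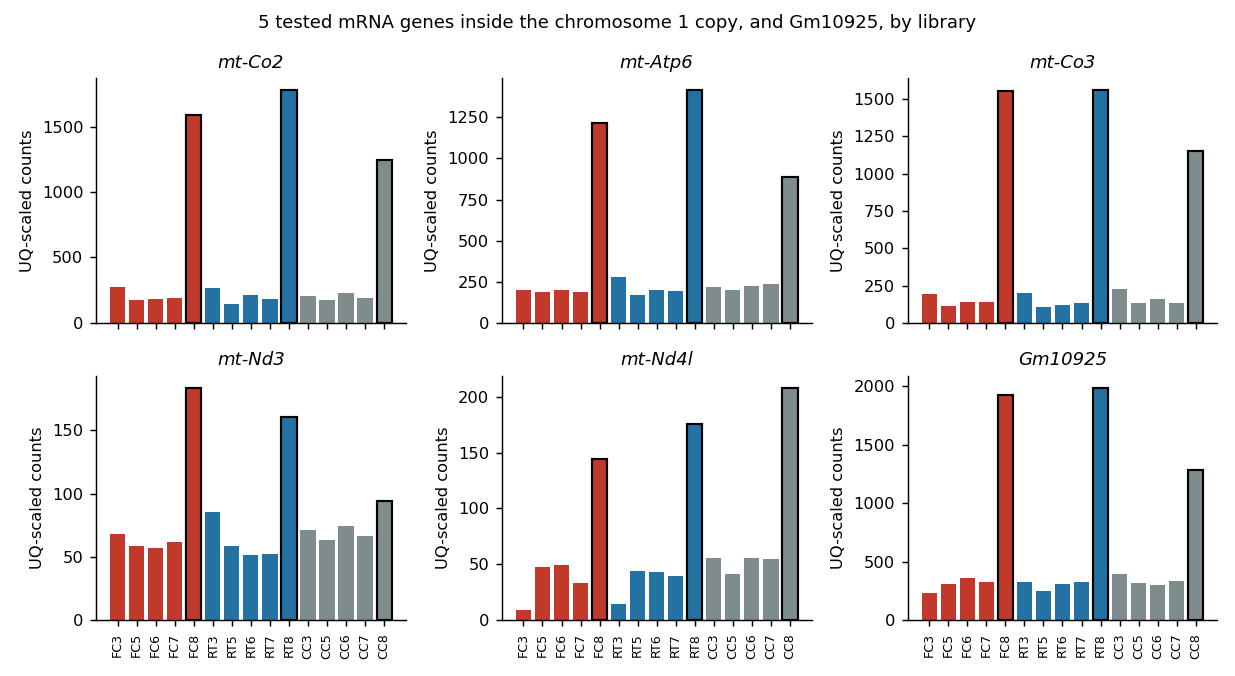
UQ counts per library of the 5 tested mRNA genes inside the chromosome 1 copy and of the nuclear gene Gm10925 on that copy, for FC, RT and CC from left to right. Black outlines mark the number 8 libraries, which are the highest 3 bars in every panel, such as 1553, 1561 and 1154 counts of mt-Co3, against 106 to 225 in the others.

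The groups were then compared gene by gene, to ask whether training or retrieval changed the RNA of this genome. The model was that of the study, with UQ factors and 5 factors of unwanted variation (RUVs) estimated from genes set aside as negative controls, and a gene was called at a false discovery rate (FDR) of 0.01 or less. The first factor was 1.04 in FC3 and 0.547 in RT3, against 0.0164 to 0.151 in the other 13 libraries. The second was -1.21 to -0.728 in the number 8 libraries, against -1.78 to -1.42 in the rest. Both splits described above thus entered the model as covariates.

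In FC against CC, 1 of the 15 tested genes was called, mt-Nd2, which was lower. With mt-Nd2 among them, 6 had an unadjusted p under 0.05 by the likelihood ratio test. Over all genes, 2.24% were called (403 of 18008), and 2976 had such a p. mt-Nd2 had 53311, 177701, 174134, 173700 and 200303 UQ counts in FC3, FC5, FC6, FC7 and FC8, against 192204, 187253, 183200, 191566 and 174304 in CC3, CC5, CC6, CC7 and CC8. FC3 lay far below all others, while FC8 lay above every CC library, so that the groups overlapped. In RT it had 111583, 163040, 178432, 154151 and 227747, with the lowest value again in number 3. In the RUVs model its log2 fold change was -0.16 ± 0.036 (SE), so that it fell by 10.7%, with an FDR of 0.000526 by edgeR's likelihood ratio test. With UQ factors alone the log2 fold change was -0.25 ± 0.25 and the FDR 0.966. Without FC3 it was -0.10 ± 0.030 with an FDR of 0.0303, and without FC3 and RT3 it was -0.064 ± 0.035 with an FDR of 0.33, so the call was lost in each case. Without CC6 it was -0.145 ± 0.040 with an FDR of 0.0157. With the replicate number as a block its FDR was 0.0148, and the gene called was mt-Tp, the proline tRNA gene, with an FDR of 0.00319.

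Other members did not reach the threshold in this comparison. mt-Tp had 2037, 3697, 3583, 3235 and 2821 UQ counts in the FC libraries in the same order, against 3094, 4173, 3991, 3837 and 4000 in CC. It was lowest in FC3, and 3 FC libraries lay above the lowest CC library. Its log2 fold change was -0.24 ± 0.065 with an FDR of 0.0117. mt-Co1, the mRNA gene with the most reads, had 320527 in FC3 and between 700673 and 755018 in FC5 to FC8, against 713714 to 844243 in CC, a log2 fold change of -0.17 ± 0.073 with an FDR of 0.205. mt-Rnr2, the rRNA gene with the most reads, had 196666 to 297394, against 181213 to 231609 in CC, a log2 fold change of 0.052 ± 0.071 with an FDR of 0.801. The 7 mRNA genes with bases outside the copy had log2 fold changes between -0.17 and -0.10, a median of -0.13, and both rRNAs had values above 0. Over all genes tested the median was -0.014. The mRNA genes are cut from shared precursors and were measured in the same libraries, so that their common sign is no set of independent results.

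Choroid plexus markers also differed between these groups. The summed UQ counts of 12 such markers, all of which were tested and none of which was at 0 in all libraries, were 4302 to 54239 in FC, 2900 to 15417 in RT and 2243 to 2897 in CC, and 11 of the 12 were called higher in FC against CC. FC5 and FC8 were highest, and FC3, FC6 and FC7, with 7711, 4302 and 7062, were also above every CC library. The part of these markers in the difference of mt-Nd2 was not tested.

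**Figure D4:**
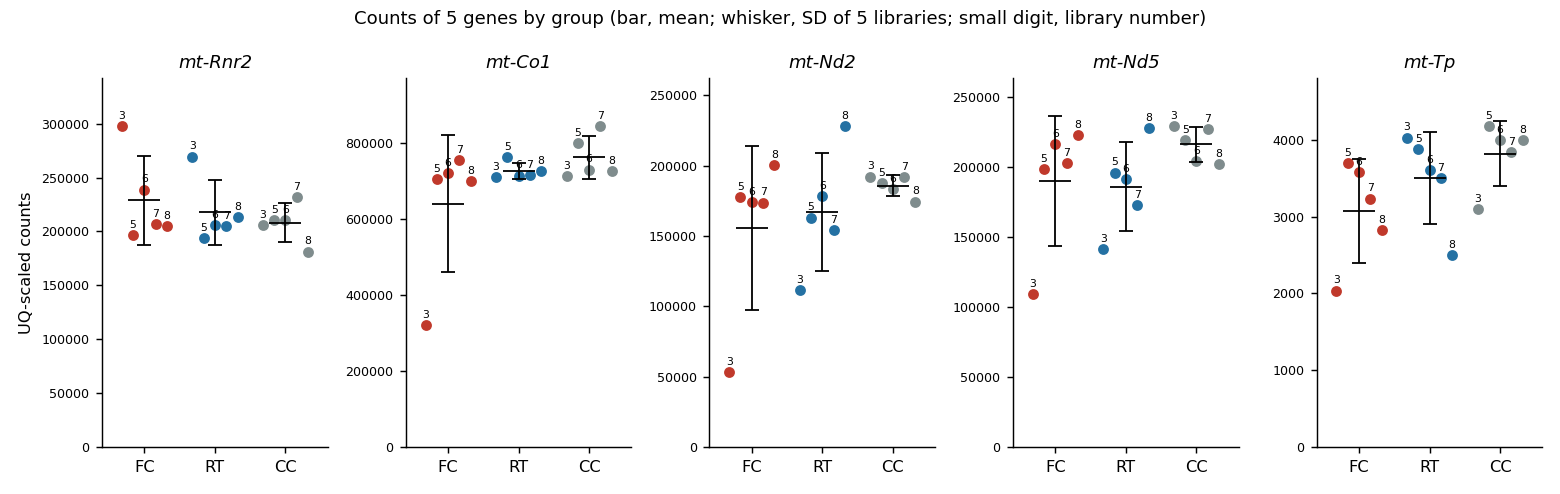
UQ counts of mt-Rnr2, mt-Co1, mt-Nd2, mt-Nd5 and mt-Tp in the 5 libraries each of FC, RT and CC, with 1 point per library and its number beside it, the mean as a bar and the SD as whiskers. For mt-Nd2, FC3 (53311) and RT3 (111583) lie below all other libraries, and the 3 groups overlap in every panel.

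In RT against CC, none of the 15 genes was called in the RUVs model, and 3 had an unadjusted p under 0.05. Over all genes, 1.01% were called (182 of 18008), and 1989 had such a p. The lowest FDR was that of mt-Nd5, which had 141495, 196098, 191363, 172996 and 228015 UQ counts in RT3, RT5, RT6, RT7 and RT8, against 229070, 219589, 204377, 227015 and 202158 in CC3, CC5, CC6, CC7 and CC8. RT3, RT5, RT6 and RT7 thus lay below every CC library, and the groups overlapped through RT8 alone. The log2 fold change was -0.15 ± 0.041 with an FDR of 0.0183 by the likelihood ratio test. DESeq2 with the same factors called it, with an FDR of 0.00136. So did the likelihood ratio test without the number 8 libraries (FDR 4.96e-06), a setting chosen after seeing the data that leaves out RT8. The likelihood ratio test did not call it without FC3 and RT3 (FDR 0.0226). With the replicate number as a block and RUVs factors, the lowest FDR of the 15 genes by that test was 0.109. The quasi-likelihood test of edgeR called none of the 15, with a lowest FDR of 0.0408, and 0.367% of all genes. mt-Nd4l followed with -0.48 ± 0.14 and an FDR of 0.0452, on counts of 14.4 to 176 in RT and 41.3 to 208 in CC. With single libraries left out, the log2 fold change of mt-Nd4l ranged from -0.632 to -0.027, and it was called in 2 of 15 fits. The value of -0.027, with an FDR of 0.968, was that without CC8. mt-Nd2 had -0.076 ± 0.036 with an FDR of 0.38, but -0.16 ± 0.040 and 0.00536 without the number 8 libraries. The 7 mRNA genes with bases outside the copy had a median log2 fold change of -0.017 in this comparison, between -0.15 and 0.008.

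In FC against RT, none of the 15 genes was called, 4 had an unadjusted p under 0.05, and the lowest FDR was 0.299, that of mt-Nd2 (log2 fold change -0.086 ± 0.035). Neither DESeq2 nor the quasi-likelihood test called any of them, and of all genes they called 0.0222% and 0%. Over all genes, 0.122% were called (22 of 18008), and 0.455% (82) with the replicate number as a block. Without the block, 1934 of all genes had an unadjusted p under 0.05. A difference of mt-Nd2 between FC and RT was therefore not detected, and its call in FC but not in RT does not show that the groups differ. The comparisons of FC and of RT with CC share the CC libraries.

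With UQ factors alone, no gene of the genome was called in any of the 3 comparisons and none had an unadjusted p under 0.05. That model called 34, 19 and 0 of all genes in FC against CC, RT against CC and FC against RT, or 0.189%, 0.106% and 0%. The standard errors of the fold changes were larger than in the RUVs model for all 15 genes, with 0.25 against 0.036 for mt-Nd2 in FC against CC. For mt-Co3, which the number 8 libraries dominate, the standard error was 0.77 with UQ factors alone and 0.27 with RUVs factors. Its sign differed between these models too, at 0.25 and -0.12. No tested gene of the genome had non-overlapping groups in UQ counts in any comparison, against 0.961% (FC and CC), 1.35% (RT and CC) and 0.228% (FC and RT) of all genes.

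**Figure D5:**
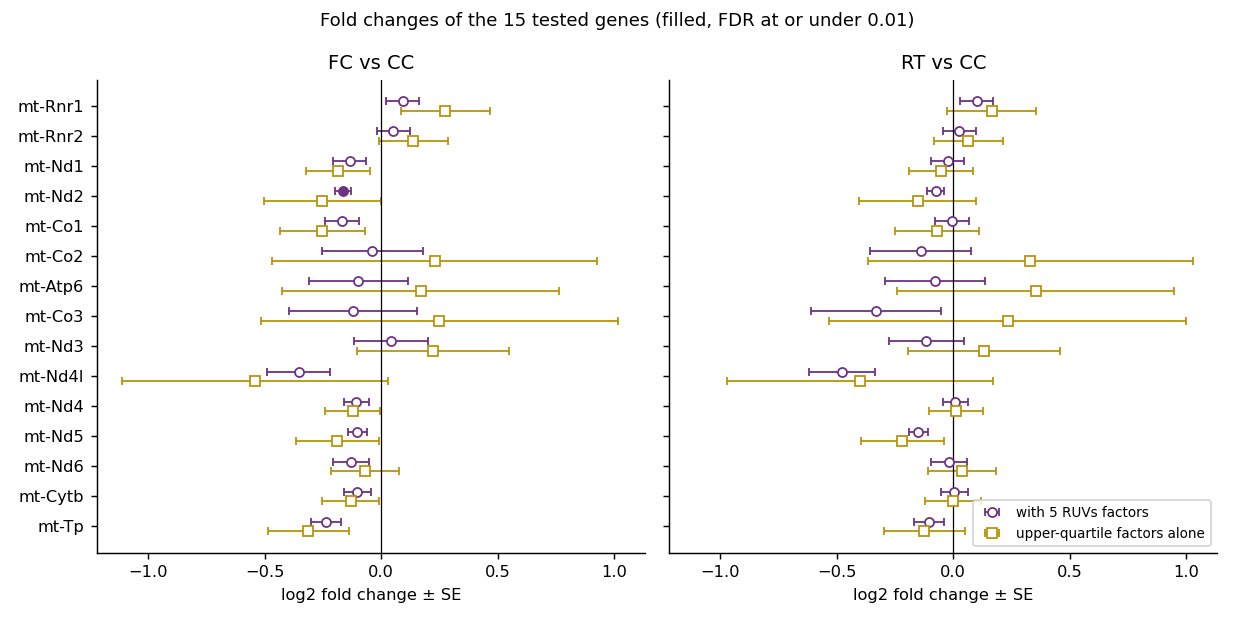
Log2 fold changes with their SE of the 15 tested genes in FC against CC (left) and RT against CC (right), with 5 RUVs factors (circles) and with upper-quartile factors alone (squares). Only mt-Nd2 in FC against CC (-0.16 ± 0.036) is filled, which marks an FDR at or under 0.01.

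The nuclear genes that transcribe, process and maintain the mitochondrial genome were read beside it, as a list of 43 genes, all of which passed the filter. None was called in FC against CC, where 6 had an unadjusted p under 0.05, in RT against CC (4) or in FC against RT (1). Over all 18008 genes, 2976, 1989 and 1934 had such a p in these comparisons. Their median log2 fold changes were -0.010, -0.001 and -0.014. The genes with the smallest p in FC against CC were Slirp, an RNA-binding partner of Lrpprc that stabilises mitochondrial mRNAs (0.19 ± 0.066, FDR 0.0701), and Ppargc1b, a coactivator of mitochondrial biogenesis (0.23 ± 0.079, FDR 0.0718). Slirp reached 1271 UQ counts in FC3, and FC5 to FC8 had 421 to 558, against 394 to 455 in CC. RT3 had 826. With UQ factors alone the log2 fold change of Slirp in FC against CC was 0.55. In RT against CC it was 0.22 ± 0.065 in the RUVs model, with an FDR of 0.0447 by the likelihood ratio test. By the quasi-likelihood test its FDR was 0.159 in FC against CC and 0.186 in RT against CC. Ptcd1, also of this list, had 0.16 ± 0.049 in RT against CC, with an FDR of 0.0587 by the likelihood ratio test. Ppargc1b had 144 to 281 in FC, against 156 to 261 in CC, and the groups overlapped.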

How the data were processed

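Hippocampal poly(A) RNA of 15 mice, 5 each after FC, after RT and in CC, was sequenced by the authors as 100-base read pairs from fragments selected by size, with 3 libraries per lane, 1 of each condition. Per the study's methods, GSNAP aligned the reads to mm9, only uniquely and concordantly placed pairs were kept, and HTSeq 0.6.1 counted them on Ensembl 65 genes. The counting mode and strand setting are not given in the sources used here. The deposited values are these raw counts per gene, with no normalization, and every column of the table was mapped to 1 library. Genes were tested where at least 6 libraries each had over 10 reads, which kept 18008 of 37310 genes. edgeR 4.0.16 (R 4.3.3) fitted all 15 libraries with upper-quartile factors and 5 RUVs factors from 625 negative control genes. RUVs was re-implemented from the published description of the method. Each contrast used the likelihood ratio test with Benjamini-Hochberg adjustment over all genes tested and an FDR of 0.01, and the SE is the log2 fold change divided by the root of the test statistic. Per the study's methods, the mice of a group came from separate training runs on different days. These p-values measure the spread between these mice that is left after the RUVs factors, which were estimated from the same libraries. The scripts were tested on simulated data.

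Library pairs of a group differed by more than sampling noise, with a chi-square of 6.28 to 440 per degree of freedom over the genes tested, so all were counted as separate. The same-numbered FC and RT libraries deviated together over all genes, with correlations of 0.254 to 0.870, while those of different numbers reached 0.512. The main model holds no term for this pairing. The replicate number entered only in an alternative, as a block over all groups. That block also covers CC, for which the same-number correlations were -0.313 to 0.241 with FC and -0.326 to 0.0937 with RT. Copies of the mitochondrial genome were found in NCBIM37, the assembly that is mm9, with megablast at 90% identity or more over 100 or more bases. Gene positions are those of the Ensembl 65 annotation. Values in every library are given for mt-Nd2, the only mitochondrial gene called in the main model or with UQ factors alone. The rRNA and mRNA gene with the most reads are given mostly by range. The tRNA gene with the most reads is given for each library of FC and CC. mt-Nd5, mt-Nd4l and the genes inside the copy were singled out after their values were seen. The members were set by their symbol and not by a measured value, but they and the lists were chosen with earlier results of these data known. Alternatives were other factors, tests, filters and scalings, the replicate number as a block, and libraries left out.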

Additional observations from a re-analysis of the deposited data

Results flagged for a closer look

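Within each group of 5 libraries, the gap between the most extreme library and its neighbour was divided by the range of the group and set against Dixon's critical value of 0.71, for the UQ counts of the 15 tested genes and for 4 shares of all counts. Of 57 groups examined, 23 exceeded it, and chance gives about 1 in 20, or 2.85 groups. The genes and shares were measured in the same 15 libraries, and the shares are sums over the genes. The 57 are thus not independent, and setting 23 against 2.85 is no test. FC3 was the lowest FC library for mt-Nd2 (0.819), mt-Co1 (0.875), mt-Nd4 (0.723), mt-Nd5 (0.787), the share of all 37 genes (0.825) and the share of the mRNAs (0.904), and the highest for mt-Rnr1 (0.781). RT3 was the highest RT library for mt-Rnr1 (0.903), mt-Rnr2 (0.746) and the share of the rRNAs (0.802), and RT5 was the highest for mt-Co1 (0.715).

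The number 8 libraries accounted for the remaining 12. For mt-Co2 the ratio was 0.930 in FC, 0.926 in RT and 0.952 in CC. For mt-Atp6 it was 0.988, 0.911 and 0.944 in the same order, and for mt-Co3 0.946, 0.936 and 0.908. FC8 was also highest for mt-Nd3 (0.913), and for mt-Nd4l RT8 (0.816) and CC8 (0.914) were highest. The causes of these departures were not tested.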

How the results depend on the processing

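The share of all genes called by the same fit is given in brackets. In FC against CC, 1 gene was called, mt-Nd2 (2.24%). The count was 0 with UQ factors alone (0.189%), with 1 (0.677%) or 3 RUVs factors (0.977%) and without FC3 and RT3 (2.77%). It was 2 with all tested genes as RUVs controls (mt-Nd2 and mt-Nd4l, 1.72%) and with DESeq2 (mt-Nd2 and mt-Tp, 0.911%). It was 1 under the other alternatives without a replicate block (0.544% to 2.8%). With single libraries left out it was 0 to 2, with 249 to 653 of all genes called, and 0 with UQ factors alone (0.117% to 0.318%). It was 0 without FC3 (1.86%) or CC6 (1.64%). In RT against CC, 0 genes were called (1.01%). The count was 2 with all tested genes as RUVs controls (1.18%) and 1 with DESeq2 (0.472%) or without a filter (0.555%). In alternatives chosen after seeing the data it was 2 without the number 8 libraries (1.56%) and 1 without FC5 and FC8 (1.16%). With single libraries left out it was 0 to 2, with 145 to 276 of all genes called. In 7 of these 15 fits mt-Nd5 was called, and its FDR ran from 0.000253 to 0.0762. Of these calls, mt-Nd5 was always 1. In FC against RT the count was 0 throughout (0% to 0.511%). All called genes were lower.

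With the replicate block and RUVs factors, 1 gene was called in FC against CC, which was mt-Tp (-0.25, FDR 0.00319) and not mt-Nd2 (-0.16, FDR 0.0148), and 0 in the other comparisons. Of all genes, that fit called 2.53% in FC against CC, 1.18% in RT against CC and 0.455% in FC against RT. With the replicate block and UQ factors alone, 0 of the mitochondrial genes were called in all 3. The shares of all genes were then 0.25%, 0.15% and 0%.

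The directions that turned belonged to fold changes not called in the main model, with 5 RUVs factors from the negative control genes. Not all of them are listed. With the quasi-likelihood test, FC against CC was 0.092 for mt-Co2 and 0.049 for mt-Co3, against -0.037 and -0.121 in the main model. FC against RT of mt-Atp6 was 0.131, against -0.018. FC against RT of mt-Nd2 was 0.017 without FC3 and RT3. RT against CC of mt-Tp was 0.038 without the number 8 libraries. RT against CC of mt-Rnr2 was -0.008 without FC3 and RT3 and -0.027 without the number 8 libraries. RT against CC of mt-Co1, at -0.005, was 0.026 with 1 factor, 0.033 with 3, 0.011 with all genes as controls, 0.007 without a filter, 0.014 with the replicate block and 0.009 without FC5 and FC8. With single libraries left out, FC against RT of mt-Nd2 was -0.124 to 0, FC against CC of mt-Rnr2 -0.015 to 0.116, RT against CC of mt-Rnr2 -0.031 to 0.072, FC against RT of mt-Rnr2 -0.026 to 0.088 and RT against CC of mt-Co1 -0.062 to 0.045. For mt-Nd4l, FC against CC was -0.547 to 0.108 (above 0 without CC8) and FC against RT -0.222 to 0.311. With UQ factors alone, FC against RT of mt-Nd2 was 0.12 without FC3 and 0.039 without RT8, RT against CC of mt-Rnr2 was -0.023 without RT3 and FC against RT of mt-Rnr2 -0.039 without FC3. For the share of counts, FC minus CC was 0.0819 points for the rRNAs alone, opposite in sign to the -0.412 of all 37 genes.

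The counts of the 6 genes inside the chromosome 1 copy and of the tRNAs limit what can be said of them, whatever the total depth. Leaving out FC3 or CC6 ended the call of mt-Nd2, with a log2 fold change of -0.10 and -0.145.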
